A study of Mus musculus with 4 samples.

Results

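Bone morphogenetic protein (BMP) signalling in cardiac endothelial cells was examined through 10 genes, the ligands Bmp2, Bmp3, Bmp4 and Bmp6, the receptors Bmpr1a, Bmpr2 and Acvrl1, the coreceptor Eng, the inhibitory Smad gene Smad6 and the target gene Id1. Every non-control probe whose accession belongs to 1 of these symbols in RefSeq was taken, which gave 13 of the 41174 probes on the array. The genes were chosen by their place in the pathway with the measured difference between the groups already known, so the values of that difference are a description. The samples were endothelial cells isolated from hearts of adult mice, in 2 groups of 2. The mice of the first are titled G2-EC-KO and carry the genotype label Gata2 knock out, and the control mice carry the label wild type. Gata2 encodes a zinc finger transcription factor of endothelial and blood cells. Strain, sex, age beyond adult, the deleted part of Gata2 and the promoter driving any recombinase are not given in the labels. Whether each replicate is its own animal or a pool is not given either. The p-values therefore reflect sample-to-sample spread that is possibly technical, at least between the G2-EC-KO samples.

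BMPs are secreted dimers that bind pairs of type I and type II serine/threonine kinase receptors. The type I receptor phosphorylates Smad1, Smad5 and Smad9, which enter the nucleus with Smad4 and induce target genes such as the Id genes and the inhibitory Smads. In endothelium, Acvrl1 (ALK1), Bmpr2 and Eng (endoglin) form the receptor system for circulating BMP9 and BMP10, and in humans mutations of these receptor genes cause hereditary haemorrhagic telangiectasia or pulmonary arterial hypertension.

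RefSeq promoters, each from 250 bases before to 50 bases after the start of the gene in build GRCm38.p6, were matched for 6 of the 10 genes (Bmp4, Bmp6, Bmpr1a, Bmpr2, Eng and Smad6). They were searched on both strands for the GATA consensus, GATAA or GATAG preceded by A or T, and for GGCGCC, a GC-rich palindrome bound by BMP Smads. The GATA consensus was in 0 of the 6 windows and in 29.8% of all 32851 promoters of the same length. GGCGCC was in 2 of the 6, those of the receptor genes Bmpr1a and Bmpr2, and in 11.9% of all promoters. A match is a description of the letters, and its absence says only that they are not in this window. Both receptor promoters are shown for the motif, which is in capitals, and the Bmp6 promoter, with neither motif, because both Bmp6 probes were lower on the G2-EC-KO arrays. Bmpr1a lies at chr14:34502497-34502796 on the minus strand, Bmpr2 at chr1:59764029-59764328 on the plus strand and Bmp6 at chr13:38345466-38345765 on the plus strand.
Bmpr1a: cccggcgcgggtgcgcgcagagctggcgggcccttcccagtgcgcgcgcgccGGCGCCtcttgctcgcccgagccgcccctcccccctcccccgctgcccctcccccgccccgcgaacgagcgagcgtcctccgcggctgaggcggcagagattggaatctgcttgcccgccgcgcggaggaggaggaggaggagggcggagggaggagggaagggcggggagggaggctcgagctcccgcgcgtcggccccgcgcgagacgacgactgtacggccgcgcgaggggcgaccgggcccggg
Bmpr2: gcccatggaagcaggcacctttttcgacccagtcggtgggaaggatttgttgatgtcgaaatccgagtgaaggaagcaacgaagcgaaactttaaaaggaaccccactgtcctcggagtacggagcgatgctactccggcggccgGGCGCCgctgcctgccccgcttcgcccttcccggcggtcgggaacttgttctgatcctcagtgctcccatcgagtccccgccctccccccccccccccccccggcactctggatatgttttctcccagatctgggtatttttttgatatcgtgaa
Bmp6: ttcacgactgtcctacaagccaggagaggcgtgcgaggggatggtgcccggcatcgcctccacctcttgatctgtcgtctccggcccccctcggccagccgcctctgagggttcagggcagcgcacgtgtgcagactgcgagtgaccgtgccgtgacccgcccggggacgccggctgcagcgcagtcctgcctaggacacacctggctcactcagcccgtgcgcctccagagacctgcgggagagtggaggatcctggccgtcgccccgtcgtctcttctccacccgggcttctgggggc
GC content was 79.3% in the Bmpr1a window, 59.3% in that of Bmpr2 and 69.3% in that of Bmp6.

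Each sample was hybridised to 1 one-colour Agilent array, and values are log2 of the processed signal relative to the 75th percentile of the array, so that 0 is that percentile. The scanner software called 63.8% to 66.5% of probes per array well above background. All 12 endothelial markers were well above background, and the VEGF receptor gene Flt1 read 6.58 and 6.50 on the G2-EC-KO arrays, against 6.53 and 6.53 on the control arrays. Control replicate 2 stood apart from the other arrays in its sex-linked transcripts. Its 4 Xist probes were not well above background, whereas all 4 were on each of the other arrays. Its 6 Y-linked probes were all well above background, against 0 of 6 on each of the other arrays. This is a male pattern on control replicate 2 and a female one on the others, so the control samples did not come from the same animals. Changes of the members, of Gata2, of the other named BMP genes and of the cell lists are therefore also given without control replicate 2. Gata2 probe A_51_P516625 read 2.16 and 2.46 on the G2-EC-KO arrays, against 1.85 and 2.17 on the control arrays, and the change was 0.30 (SE 0.18). The second, A_52_P233441, gave 0.17 (SE 0.14), and without control replicate 2 the Gata2 probes gave 0.45 and 0.28. Where these probes lie relative to the deleted part is not given, so they do not check the labels, and every direction rests on the labels alone.

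Bmp3 was detected on the G2-EC-KO arrays alone, both Bmp6 probes were lower there, and Eng, Smad6 and Id1 had group means closer together than their replicates. None of the 13 probes passed an adjusted p of 0.05 over all 26894 probes tested (limma, Benjamini-Hochberg), where 1 probe passed, 0.00372% of those tested. The smallest adjusted p of a member was 0.135, at Bmp3, and the next was 0.489, at Bmp6. Bmp3 passed the detection filter only through the G2-EC-KO arrays, where it was higher. Its p and the separation of its groups are therefore not used as support. At an unadjusted p under 0.05 there were 2 of the 13, the Bmp3 probe and A_52_P413646 of Bmp6, against 9.61% of all probes. Without G2-EC-KO replicate 1 it was 5 of the 13, beside 5618 of 26894 probes, against 2585 with all arrays, so the count over all probes rose too. Without G2-EC-KO replicate 2 it was 1, beside 2183 of all probes, and without control replicate 2 it was 1, beside 1445. Of the 13 probes, 8 had a lower and 5 a higher mean in G2-EC-KO, and their median log2 change was -0.059, against 0.00036 over all probes. With 1 probe per gene, that of highest mean signal, 5 of the 10 genes were lower and 5 higher, with a median of 0.012. At 4 probes both G2-EC-KO arrays lay below both control arrays, against 22.3% of all probes. At 1 probe, Bmp3, they lay above, against 24.1% of all probes. Since this contrast was known when the genes were chosen, nothing is read from these counts.

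**Figure D1:**
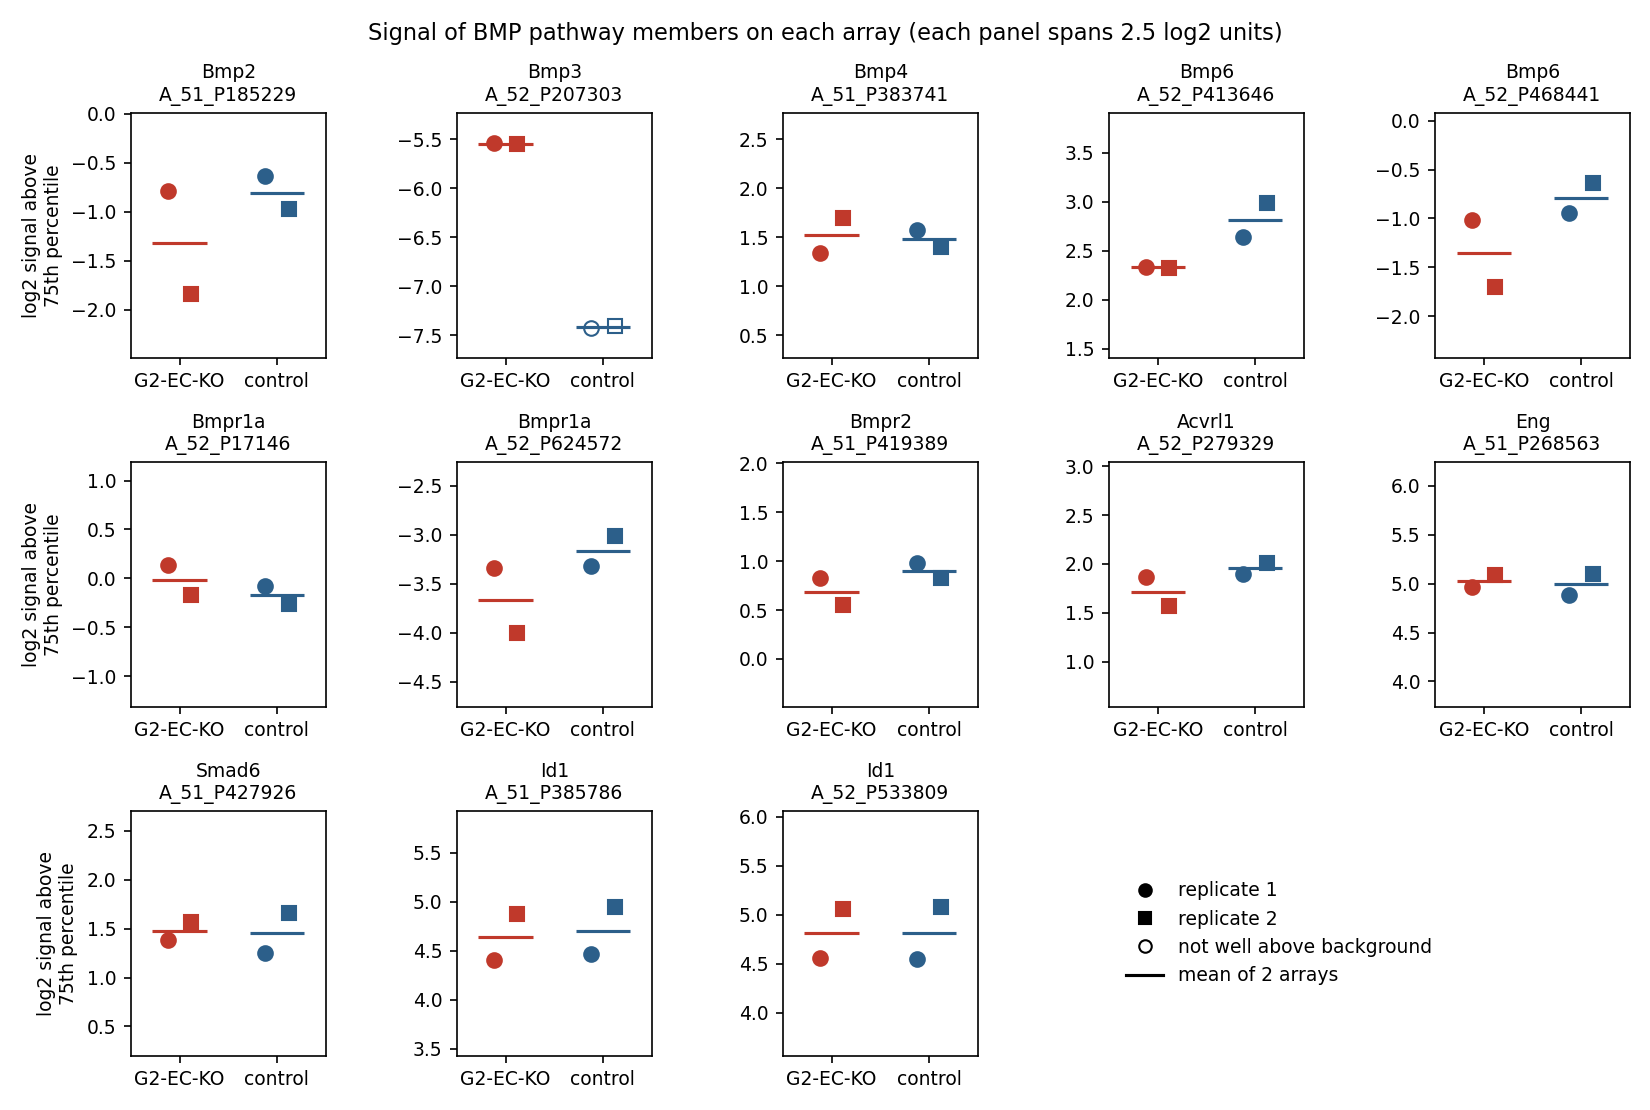
Log2 signal relative to the 75th percentile of the array (vertical axis, the same span in every panel) for the 13 member probes on the 2 G2-EC-KO arrays (left) and the 2 control arrays (right), with a line at each mean and open symbols for a probe not well above background. Bmp3 was detected on the G2-EC-KO arrays only, both Bmp6 probes lay lower on the G2-EC-KO arrays, and the Id1 values of the groups overlapped.

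Bmp6, a ligand that liver endothelial cells release to control iron balance, had lower G2-EC-KO means at both of its probes. A_52_P413646 read 2.33 and 2.33 on the G2-EC-KO arrays, against 2.64 and 2.99 on the control arrays. The G2-EC-KO arrays nearly coincided, and both lay below both control arrays. Means were 2.33 ± 0.0036 in G2-EC-KO and 2.81 ± 0.25 in control (SD, n = 2 each), and the log2 change was -0.48 (SE 0.16, 95% interval -0.89 to -0.070), or 1.40-fold higher in control (limma, adjusted p = 0.489).
A_52_P468441 read -1.01 and -1.70 on the G2-EC-KO arrays, against -0.94 and -0.64 on the control arrays. Here too the groups did not overlap, but G2-EC-KO replicate 1 lay next to control replicate 1. Means were -1.36 ± 0.49 in G2-EC-KO and -0.79 ± 0.21 in control (SD, n = 2 each), and the change of -0.57 (SE 0.27, 95% interval -1.28 to 0.15) was -0.22 without G2-EC-KO replicate 2. Without control replicate 2, A_52_P413646 gave -0.31 (SE 0.18) and A_52_P468441 gave -0.41 (SE 0.34). Both probes kept their direction whichever single array was left out, which follows from the lack of overlap and is no further support.
A_52_P468441 had the largest change among the 12 member probes well above background on all 4 arrays. Among 13129 named genes, with 1 probe per gene, the 3 whose array values, each minus its mean over the 4 arrays, lay nearest to it included the natural killer receptor genes Klra9 and Klra10, at distances of 0.057 and 0.090. Klra9 and Klra10 belong to a family of closely similar genes, so their probes may read each other's transcripts. The Bmpr1a probe A_52_P624572 had a similar array pattern. G2-EC-KO replicate 2 minus replicate 1 was -0.69 at A_52_P468441 and -0.66 at the Bmpr1a probe. Control replicate 2 minus replicate 1 was 0.30 at both.

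Bmp3, which in bone acts against other BMPs, read -5.54 and -5.55 on the G2-EC-KO arrays, against -7.42 and -7.41 on the control arrays, where it was not well above background. The replicates lay close together and the groups far apart, but the G2-EC-KO signals were themselves near the limit of detection. They lay 0.21 and 0.39 log2 units above the dimmest detected signal of their arrays, and 0.444% and 1.53% of the detected spots were dimmer. The dimmest detected signal was -5.48 on control replicate 1, which is above both G2-EC-KO values, and -5.73 on control replicate 2, so no lower bound on the fold holds for both control arrays and none is given. The fitted change of 1.87 (SE 0.10; limma, adjusted p = 0.135) rests on control signals below those limits. It was 0.49 with normexp, another background correction, and 1.88 without control replicate 2.

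Bmp2 and Bmp4 are close relatives that signal through shared receptors, and the array carries 10 spots for each of their probes. Bmp2 read -0.79 and -1.84 on the G2-EC-KO arrays, against -0.64 and -0.97 on the control arrays. G2-EC-KO replicate 2 was the lowest of the arrays, and G2-EC-KO replicate 1 lay between the control arrays. The SD over spots within an array was 0.041 to 0.076, while G2-EC-KO replicate 2 minus replicate 1 was -1.05, so all spots of that array read the low value. Means were -1.32 ± 0.74 in G2-EC-KO and -0.80 ± 0.23 in control (SD, n = 2 each), with a change of -0.51 (SE 0.38, 95% interval -1.51 to 0.49). It was 0.012 without G2-EC-KO replicate 2 and -0.68 without control replicate 2, so the sign of the Bmp2 change rests on 1 array.
Bmp4 read 1.34 and 1.70 on the G2-EC-KO arrays, against 1.57 and 1.40 on the control arrays. The lowest and the highest value both belonged to G2-EC-KO, so the groups overlapped. Means were 1.52 ± 0.26 in G2-EC-KO and 1.48 ± 0.12 in control (SD, n = 2 each), and G2-EC-KO minus control was 0.035 (SE 0.17, 95% interval -0.41 to 0.48), or -0.050 without control replicate 2. The SD over spots was 0.042 to 0.056, and the order of the G2-EC-KO arrays was opposite in Bmp2 and Bmp4.

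**Figure D2:**
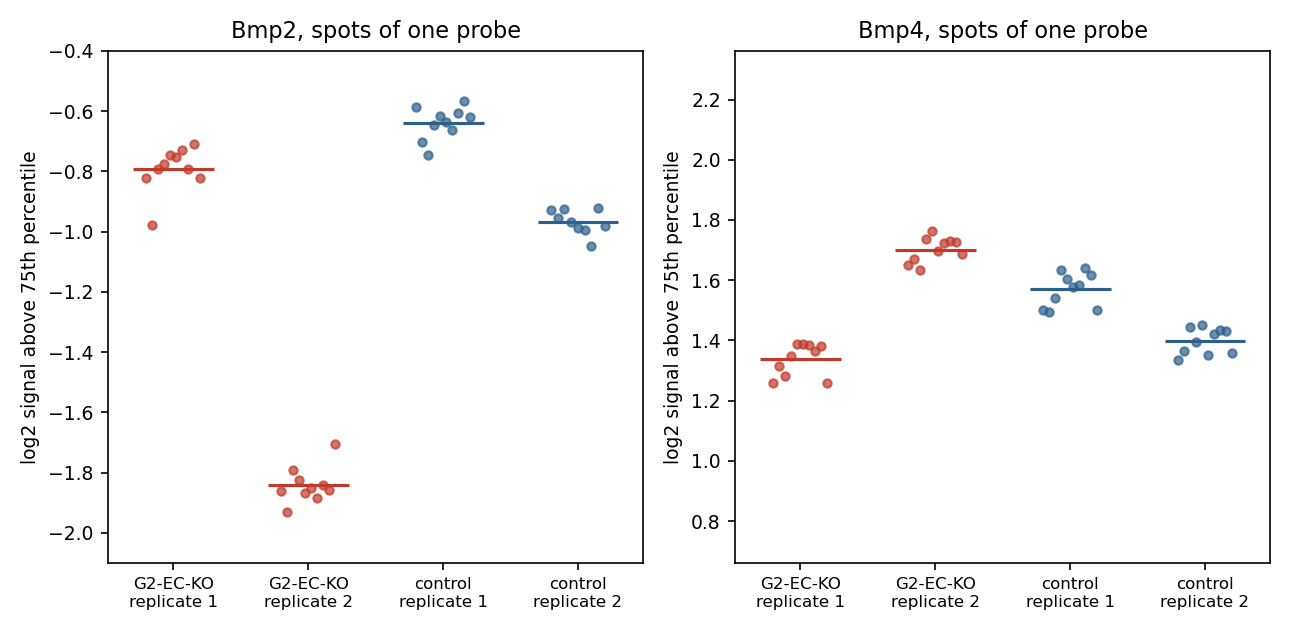
Log2 signal relative to the 75th percentile of the array for each spot of the Bmp2 probe (left) and the Bmp4 probe (right), with the G2-EC-KO arrays left of the control arrays and a line at the mean of each array. Spots of 1 array lie close together, and the Bmp2 spots of G2-EC-KO replicate 2 lie between -1.93 and -1.70, below the Bmp2 spots of the other arrays.

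Acvrl1, the endothelial type I receptor for BMP9 and BMP10, read 1.87 and 1.57 on the G2-EC-KO arrays, against 1.90 and 2.01 on the control arrays. The groups did not overlap, though G2-EC-KO replicate 1 lay just under control replicate 1. Means were 1.72 ± 0.21 in G2-EC-KO and 1.96 ± 0.080 in control (SD, n = 2 each), which gives -0.24 (SE 0.15, 95% interval -0.63 to 0.15), or -0.18 without control replicate 2.
Bmpr2, the type II receptor gene mutated in human familial pulmonary arterial hypertension, read 0.83 and 0.55 on the G2-EC-KO arrays, against 0.98 and 0.82 on the control arrays. G2-EC-KO replicate 2 was the lowest, and G2-EC-KO replicate 1 lay just above control replicate 2, so the groups overlapped. Its change was -0.21 (SE 0.15, 95% interval -0.60 to 0.18), or -0.29 without control replicate 2. Without G2-EC-KO replicate 2 the changes were -0.090 for Acvrl1 and -0.075 for Bmpr2.
Bmpr1a (ALK3), a type I receptor for BMP2 and BMP4, was read by a pair of probes that differed in sign. A_52_P17146 read 0.14 and -0.16 on the G2-EC-KO arrays, against -0.078 and -0.26 on the control arrays, and the groups overlapped. A_52_P624572 read -3.34 and -4.00 on the G2-EC-KO arrays, against -3.32 and -3.01 on the control arrays, with G2-EC-KO replicate 1 just under control replicate 1. Their changes were 0.15 (SE 0.16) and -0.50 (SE 0.26), and no direction is given for the gene. Without control replicate 2 they were 0.064 (SE 0.22) and -0.35 (SE 0.33), and with normexp 0.15 and -0.27.
Eng, the endothelial coreceptor, read 4.97 and 5.09 on the G2-EC-KO arrays, against 4.88 and 5.10 on the control arrays. The G2-EC-KO values lay between the control values. Means were 5.03 ± 0.083 in G2-EC-KO and 4.99 ± 0.16 in control (SD, n = 2 each), and the difference of 0.035 (SE 0.13) has a 95% interval of -0.32 to 0.39, which holds changes of either sign. It was 0.15 (SE 0.19) without control replicate 2.

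**Figure D3:**
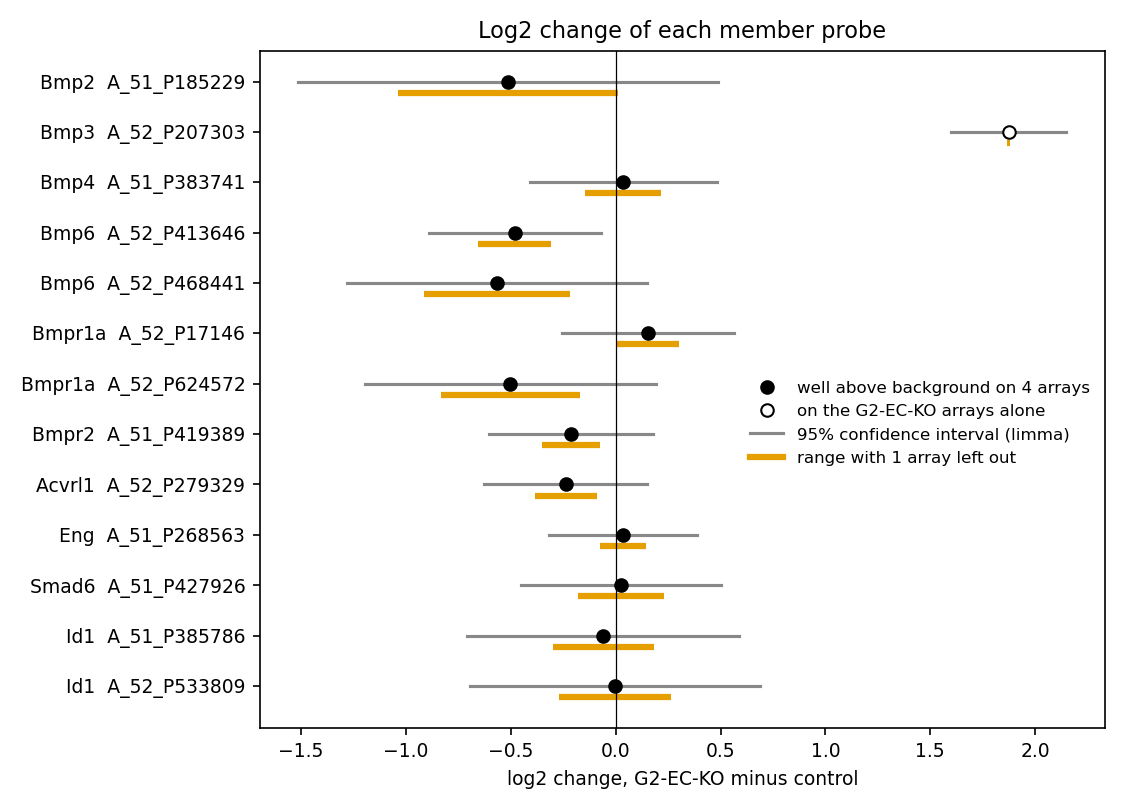
Log2 change, G2-EC-KO minus control (horizontal axis), of the 13 member probes, with the 95% confidence interval of the limma fit in grey and the range over fits that leave out 1 array in orange. The Bmp3 interval is fitted on control signals below detection and has no reading here, the interval of A_52_P413646 of Bmp6 reaches from -0.89 to -0.070, and the Bmp2 range reaches from -1.04 to 0.012.

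Smad6, an inhibitory Smad gene that BMP signalling induces, read 1.39 and 1.57 on the G2-EC-KO arrays, against 1.25 and 1.66 on the control arrays. Its G2-EC-KO values also lay between the control values. The difference was 0.026 (SE 0.18, 95% interval -0.45 to 0.50), or 0.23 (SE 0.20) without control replicate 2.
Id1, an inhibitor of helix-loop-helix factors and a direct Smad target, read 4.41 and 4.88 on the G2-EC-KO arrays, against 4.46 and 4.95 on the control arrays, at A_51_P385786. Its second probe A_52_P533809 read 4.56 and 5.05 on the G2-EC-KO arrays, against 4.54 and 5.08 on the control arrays. At both probes each group held a lower and a higher array, 0.47 to 0.53 apart, and the group means nearly coincided.
The Id1 differences were -0.059 (SE 0.25, 95% interval -0.71 to 0.59) and -0.0017 (SE 0.26, 95% interval -0.69 to 0.69). Without control replicate 2 they were 0.18 (SE 0.27) and 0.26 (SE 0.28), with the sign turned at both probes.

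G2-EC-KO replicate 2 was the lowest of the 4 arrays at 6 of the 13 member probes, against 31.9% of all probes, and lay below G2-EC-KO replicate 1 at 8 of 13, against 47.1% of all probes. The median absolute difference between the G2-EC-KO arrays was 0.30 over the members and 0.18 over all probes. Between the control arrays it was also 0.30 over the members, and 0.12 over all probes.

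Of 61 further genes of the pathway in 5 lists by role, 59 had a probe and 46 were tested, with 1 probe per gene. None of the 46 passed the adjusted threshold in either direction (limma), 24 had a higher mean and 22 a lower one, and their median log2 change was 0.0082. At an unadjusted p under 0.05 there were 1 higher and 3 lower, beside 9.61% of all probes, and the smallest adjusted p was 0.387, at Sost. The groups did not overlap at 9 genes with G2-EC-KO higher and at 9 with G2-EC-KO lower, beside 24.1% and 22.3% of all probes.
Of the other ligand genes, 5 of 13 were tested, and 7 were well above background on no array, among them Gdf2 and Bmp10, which encode BMP9 and BMP10. Gdf7 and Bmp8a had the smallest p among those tested, with changes of 0.19 (SE 0.11) and -0.20 (SE 0.12). The Bmp8a value was -0.019 with normexp, against 0.17 for Gdf7. Of the other receptors and coreceptors, 8 of 9 were tested, 4 with a higher and 4 with a lower mean. The coreceptor gene Tgfbr3 (betaglycan) and the type II receptor gene Acvr2b gave -0.30 (SE 0.11) and -0.34 (SE 0.13), or -0.16 and -0.25 with normexp.
Of the Smad transducers and their regulators, 10 of 11 were tested, 6 with a higher and 4 with a lower mean. Smurf1, a ubiquitin ligase that targets BMP Smads, gave -0.31 (SE 0.14), and -0.51 (SE 0.20) at its second probe. Ski, a corepressor of Smads, gave -0.17 (SE 0.12), and -0.072 (SE 0.13) and -0.68 (SE 0.30) at its other probes. All 10 of the other target genes were tested, 5 with a higher and 5 with a lower mean. The Id genes Id4 and Id2 had the smallest p there, with 0.21 (SE 0.11) and 0.20 (SE 0.17). The second probe of Id4 gave 0.027 (SE 0.14) and that of Id2 0.40 (SE 0.19).
Among extracellular antagonists and modulators, 14 of 19 genes were tested, 7 with a higher and 7 with a lower mean. Sost (sclerostin), a secreted inhibitor known from bone, read -0.91 and -0.84 on the G2-EC-KO arrays, against -2.23 and -2.85 on the control arrays, at A_52_P347898. The groups were well apart, by 1.66 (SE 0.23; limma, adjusted p = 0.387), and by 1.35 to 1.97 with each array omitted in turn. The second Sost probe, A_51_P213870, gave 0.25 (SE 0.11), in the same direction but smaller.
Nog (noggin), which binds BMP2 and BMP4 and keeps them from their receptors, read -3.77 and -3.83 on the G2-EC-KO arrays, against -3.33 and -3.00 on the control arrays. Both G2-EC-KO arrays lay below both control arrays, and the difference was -0.64 (SE 0.15; limma, adjusted p = 0.404), or -0.35 with normexp.
Without control replicate 2 the changes were 0.21 for Gdf7, -0.27 for Bmp8a, -0.33 for Tgfbr3 and -0.42 for Acvr2b. They were -0.31 and -0.54 for Smurf1, -0.13, -0.019 and -0.63 for Ski, 0.27 and 0.10 for Id4 and 0.38 and 0.61 for Id2, in the order of probes above. For Sost they were 1.35 and 0.25, and for Nog -0.47. Each of these kept its direction, which leaving out 1 array cannot turn where the groups do not overlap.

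**Figure D4:**
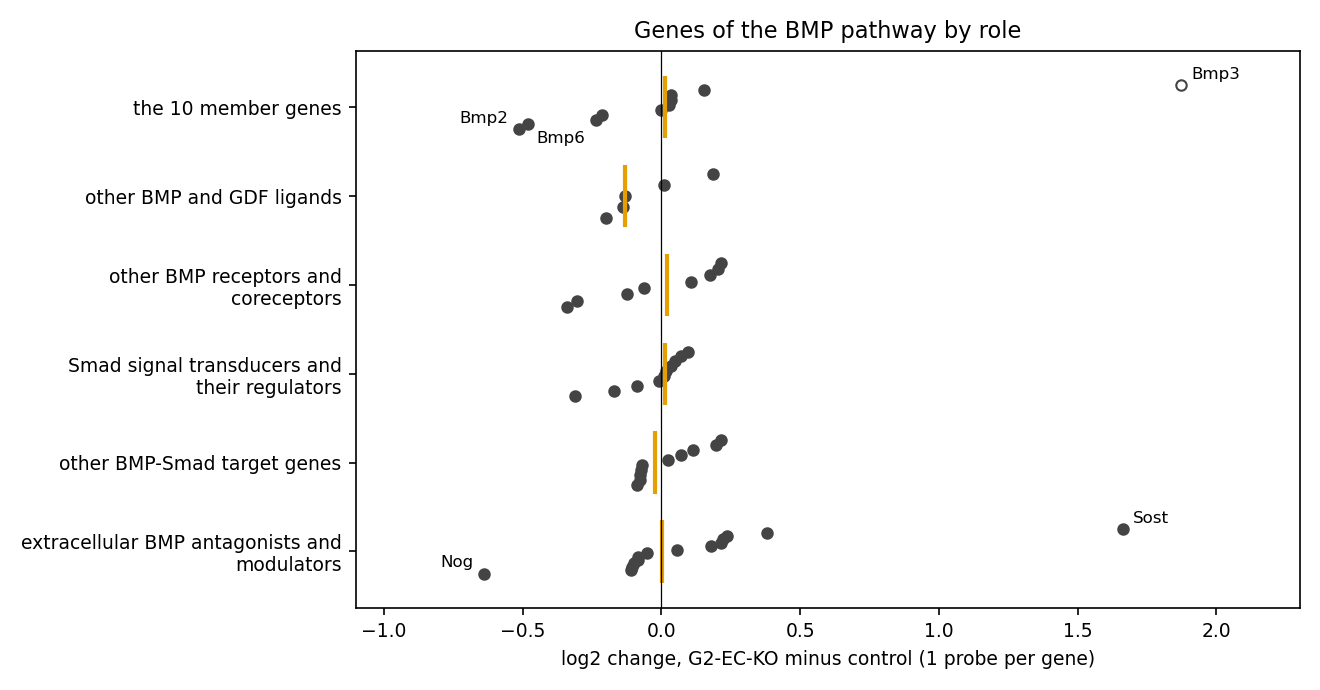
Log2 change, G2-EC-KO minus control (horizontal axis), of every gene tested in the 6 role groups of the pathway, 1 probe per gene, with the median of each group in orange and an open symbol for Bmp3, not detected in control. Medians lie between -0.13 and 0.021, and Bmp3 at 1.87 and Sost at 1.66 stand farthest to the right.

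Transcripts of other cell types and of cycling cells were present on all arrays. Summed over a list, in units of the 75th percentile, the 12 cell cycle genes came to 15.5 and 24.3 on the G2-EC-KO arrays, against 8.42 and 6.65 on the control arrays. All 12 had a higher mean, 11 of them at an unadjusted p under 0.05 (limma), beside 9.61% of all probes. Over all probes, 49.9% had a lower mean. The 12 cardiomyocyte markers came to 102 and 135 on the G2-EC-KO arrays, against 95.1 and 96.5 on the control arrays, and all 12 had a higher mean. The 11 macrophage and monocyte markers measured came to 17.1 and 15.0 on the G2-EC-KO arrays, against 11.03 and 15.5 on the control arrays, and all 11 had a higher mean. Among them, Ccr2 had no detected signal in control, where it read -7.36 and -5.98. It was tested only because of its G2-EC-KO signals, so its direction was fixed by the filter and is not used as support.
For the 12 fibroblast markers the sums were 197 and 213 on the G2-EC-KO arrays, against 168 and 199 on the control arrays, with 11 of 12 higher. For the 11 pericyte and smooth muscle markers they were 359 and 258 on the G2-EC-KO arrays, against 350 and 314 on the control arrays, with 2 higher and 9 lower. The 12 endothelial markers summed to 550 and 535 on the G2-EC-KO arrays, against 536 and 583 on the control arrays, with 5 higher and 7 lower. The 8 endocardial markers summed to 80.3 and 70.5 on the G2-EC-KO arrays, against 74.1 and 76.3 on the control arrays. Of the 7 endocardial markers tested, 4 were higher, Npr3 (0.73), Plvap (0.44), Cytl1 (0.37) and Cgnl1 (0.20). The 3 lower were Vwf (-0.18), Nfatc1 (-0.17) and Tmem100 (-0.072). Of the genes of all these lists 0 passed the adjusted threshold (limma). At an unadjusted p under 0.05 there were 2 cardiomyocyte, 2 macrophage (Ccr2 and Tyrobp) and 2 fibroblast markers. The p of Ccr2, undetected in control, is not used as support either. The count was 0 for pericytes and smooth muscle, 1 for endothelium and 2 for endocardium. Hapln1, of the endocardial list, was the 1 measured marker well above background on no array. The marker of highest mean signal in each list gave 1.54 (SE 0.27) for Mki67 (cell cycle), 0.12 (SE 0.13) for Actc1 (cardiomyocyte), 0.51 (SE 0.22) for Pf4 (macrophage), 0.088 (SE 0.15) for Gsn (fibroblast), -0.15 (SE 0.24) for Acta2 (smooth muscle) and -0.18 (SE 0.14) for Vwf (endocardial, and also on the endothelial list). Without control replicate 2 these were 1.37, 0.15, 0.79, 0.14, -0.29 and -0.13, and Pf4 was 0.22 without control replicate 1. Median log2 changes of the lists were 1.51 (1.32 without control replicate 2) for the cell cycle, 0.36 (0.26 without control replicate 2) for cardiomyocytes, 0.35 (0.64 without control replicate 2) for macrophages and 0.19 (0.37 without control replicate 2) for fibroblasts. They were -0.14 (-0.081 without control replicate 2) for pericytes and smooth muscle, -0.12 (-0.024 without control replicate 2) for endothelium and 0.20 (0.18 without control replicate 2) for endocardium. In a fit without 1 array, the cardiomyocyte markers Nppa, Actn2, Pln, Tnnt2 and Ryr2 turned negative, at -0.49, -0.056, -0.051, -0.045 and -0.0076. The fibroblast markers Pdgfra, Dcn, Gsn and Dpt did too, at -0.22, -0.15, -0.063 and -0.00048. All other markers tested in these lists kept their direction. Nppa read 2.45 and 4.28 on the G2-EC-KO arrays, against 3.53 and 2.35 on the control arrays. The macrophage sum was lowest on control replicate 1, at 11.03. Among the macrophage markers, Csf1r, Lyz1, Cd14 and Mrc1 turned negative in a fit without 1 array, at -0.084, -0.12, -0.14 and -0.045. The other macrophage markers tested stayed positive in every such fit, though for Ccr2 these fits rest on undetected control signals. At all of these but Cd163 the groups did not overlap, so no such fit could turn the sign. In RNA from a cell preparation, fewer cells of a type and less RNA per cell cannot be told apart. The part of these cells in the BMP values was not tested.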

How the data were processed

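Cy3-labelled cRNA of 4 samples was measured on 4 one-colour Agilent arrays, per the labels' protocols. The file headers give array design 014868, build mm9 and Feature Extraction 10.7.3.1 as the software, and the submitters' processing notes name 10.5. The processed signal of the scanner files had its background subtracted and was detrended array by array, per the file headers, and was not normalized between arrays. The groups lay at different positions of 1 slide, so position and group cannot be told apart. The software's flags, such as well above background, were deposited as other values. In the deposited value table, intensity equals median spot signal minus median background plus 16, by comparison with the scanner files, so it is not detrended.

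Control and outlier spots were left out, log2 of the deposited processed signal was set relative to the 75th percentile of the array, and spots of a probe were averaged. Symbols came by accession from RefSeq GRCm38.p6, which matched 26933 of 41174 probes. Tested were the 26894 probes detected above background by the flag on 2 or more of 4 arrays. The test was limma 3.58.1 (lmFit, eBayes; R 4.3.3) with group as the only term, two-sided, with Benjamini-Hochberg adjustment over all tested probes. There were 2 residual degrees of freedom, the number of arrays limits the precision, and the median SE was 0.14. For 2 against 2 samples the smallest two-sided p of an exact permutation test is 0.333. The fit was tested on simulated data with known changes and variances drawn from the fitted prior. Whether changes of the size seen at the members could pass is not read from it. Named genes were the members, Gata2, the 2 genes with the smallest p in each other BMP list, the marker of highest mean signal in each cell list and the 3 genes nearest to the member with the largest change, of which 1 is not reported here. The members and lists were chosen with earlier results of these data known. Alternatives were normexp with an offset of 50 (planned on the mean spot signal and run on the median one, since the mean is not among the columns used here), other scalings and filters, the value table, a variance trend, a replicate block and each array left out.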

Additional observations from a re-analysis of the deposited data

How the results depend on the processing

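None of the 13 member probes passed the adjusted threshold under the 12 alternatives run, with a smallest adjusted p of 0.112, under median centring, and 0.742 at Bmp3 without control replicate 2 (limma). The count over all probes, 1, was 2 with normexp, quantile normalization or median centring, and 0 with no filter on dim probes, with a filter on all 4 arrays, with a variance trend and with the replicate block. Leaving out 1 array gave 0 to 8, the 8 without control replicate 1. The median log2 change of the member probes, -0.059, was -0.14 with the filter on all 4 arrays, which drops Bmp3. It ranged from -0.27 without control replicate 1 to 0.0028 without G2-EC-KO replicate 1. Same-numbered arrays deviated together with a correlation of 0.044, and the labels do not pair them. The replicate block left member calls at 0 and their median at -0.059, with a smallest adjusted p of 0.315 (limma). Of the 13 probes, 7 kept their direction whichever array was left out. Among these are the 4 lower probes and the 1 higher probe without overlap, whose direction leaving out 1 array cannot turn. Directions turned for Eng and Smad6 without control replicate 1, for Bmp4 and both Id1 probes without control replicate 2, for both Id1 probes without G2-EC-KO replicate 1, and for Bmp2, Bmp4, Eng and Smad6 without G2-EC-KO replicate 2. Among the other alternatives, the Id1 probe A_52_P533809 turned with normexp, median centring and the value table, and no other member did. The cause was not tested.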
